A study of Mus musculus with 9 samples.

Results

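Blood vessels of fat grow and are maintained under secreted factors that act on receptors of endothelial cells, and 9 genes of this system were followed across 9 arrays. They are the vascular endothelial growth factors Vegfa, Vegfb and Vegfc, the angiopoietins Angpt1 and Angpt2, the receptors Kdr, Flt1 and Tek, and the cell-surface aminopeptidase Anpep. The genes were picked by symbol, and every probe that the platform annotation assigns to 1 of these symbols was taken. This gave 10 probes for 8 of the 9 genes, out of 45281 probes on the array. Kdr had no named probe and was not analysed here. Names were available only for probes of a smaller log2 table from the authors, in which probes that change little are under-represented. A gene without a named probe may therefore still have a probe on the array. All 10 probes were among the 20558 kept after a filter on dim probes. It asks for a detection p under 0.05 on 3 or more arrays and leaves 8699 named genes. Listed genes are counted as measured only if they are among these.

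Expression was measured in whole epididymal WAT (white adipose tissue, here the fat pad along the male reproductive tract). The male C57BL/6J mice arrived at 4 weeks of age and were kept on the AIN-76 diet for 1 week. The LU group then received the high-fat diet with 0.005% by weight of luteolin, a plant flavone, for 16 weeks. The HFD group received the high-fat diet alone, given in the labels as 20% fat and 1% cholesterol, and the ND group a normal diet, both for 16 weeks. All mice were of 1 inbred strain, which 1 field of the labels spells C56BL/6J. There were 3 arrays (Illumina MouseWG-6 v2) for each diet. According to the methods the RNA was pooled into sets, with no word on how many mice a set holds, so p-values reflect the spread between pools and not between mice. Values are log2 signal after quantile normalization, and changes are log2 fold changes with their SE from limma, with p-values adjusted by Benjamini-Hochberg over all kept probes. A gene was called where its adjusted p was under 0.05. A gene with several probes was read from its brightest, and levels of different genes are not set against each other, since probes differ in brightness for the same amount of RNA.

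VEGF-A is the main signal for vessel sprouting and acts through the receptor tyrosine kinase VEGFR2, the product of Kdr, while VEGFR1, the product of Flt1, binds VEGF-A and VEGF-B tightly and signals weakly. VEGF-C acts mostly on lymphatic vessels through VEGFR3. Angiopoietin-1 activates the endothelial receptor Tie2, the product of Tek, and keeps vessels quiet, whereas angiopoietin-2 counters it in many settings and loosens vessels. Adipocytes are a known source of VEGF-A in fat.

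RefSeq (GRCm38.p6) gave a promoter entry for 7 of the 9 genes, Angpt1 and Angpt2 not among them. The 250 bases before the first start site are shown for the 3 VEGF ligands, since Vegfa and Vegfb changed one way in HFD and LU and Vegfc the other way, and for Anpep, which had the largest change. Each runs 5′ to 3′ on the strand of the gene, and capitals mark the GC box GGGCGG on either strand, the core motif bound by Sp1 family factors.
Vegfa, chr17:46032378-46032627, minus strand: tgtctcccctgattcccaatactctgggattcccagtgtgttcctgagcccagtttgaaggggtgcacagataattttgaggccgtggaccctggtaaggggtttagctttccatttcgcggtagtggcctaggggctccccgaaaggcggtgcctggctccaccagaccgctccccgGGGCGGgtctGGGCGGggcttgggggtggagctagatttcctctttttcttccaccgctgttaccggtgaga
Vegfb, chr19:6987652-6987901, minus strand: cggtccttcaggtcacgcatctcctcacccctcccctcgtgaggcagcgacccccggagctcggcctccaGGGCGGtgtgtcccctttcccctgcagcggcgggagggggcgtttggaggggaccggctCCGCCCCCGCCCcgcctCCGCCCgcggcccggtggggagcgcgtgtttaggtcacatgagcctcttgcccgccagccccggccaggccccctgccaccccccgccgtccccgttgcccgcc
Vegfc, chr8:54077282-54077531, plus strand: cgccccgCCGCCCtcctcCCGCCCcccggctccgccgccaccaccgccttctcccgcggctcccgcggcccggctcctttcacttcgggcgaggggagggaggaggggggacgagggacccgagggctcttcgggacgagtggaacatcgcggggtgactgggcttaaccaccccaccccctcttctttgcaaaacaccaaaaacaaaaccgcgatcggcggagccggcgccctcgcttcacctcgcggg
Anpep, chr7:79848211-79848460, minus strand: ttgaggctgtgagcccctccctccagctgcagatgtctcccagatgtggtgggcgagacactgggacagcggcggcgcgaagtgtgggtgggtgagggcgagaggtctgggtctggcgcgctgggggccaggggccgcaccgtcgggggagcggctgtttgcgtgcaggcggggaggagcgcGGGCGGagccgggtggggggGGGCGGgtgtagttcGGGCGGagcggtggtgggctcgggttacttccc
The Vegfa stretch holds 2 GC boxes, that of Vegfb 4, that of Vegfc 2 and that of Anpep 3. Of the receptor genes, Flt1 has 3, Kdr has 2 and Tek has 0 in the same window. Of 32851 promoters of this length, 32.74% hold at least 1. The GC content of these windows is 59.2% in Vegfa, 76.4% in Vegfb, 71.6% in Vegfc, 72.8% in Anpep and 51.2% in Tek, beside a median of 52.4% over all promoters. The hypoxia response core was searched on both strands in both of its forms, ACGTG (in 16.57% of promoters) and GCGTG (in 28.16%). At the first start site ACGTG has 0 matches in the 7 windows, while GCGTG has 2 in Vegfb, 2 in Kdr, 1 in Flt1, 1 in Anpep and 0 in Vegfa, Vegfc and Tek. The other Vegfa start site in RefSeq has 1 match of each form in its window. The presence or absence of these letters is a description and was not tied to the changes below.

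In HFD against ND, Vegfa, Vegfb and Flt1 were lower, and Vegfc, Angpt2 and Anpep were higher. In LU against HFD, Vegfa and Vegfb were higher, and Vegfc, Angpt2 and Anpep were lower. Both comparisons use the same HFD arrays. Flt1 was not called in LU against HFD, and Tek was not called in any comparison. Angpt1 was called only in LU against ND, and that call was lost when any of 4 arrays was left out.

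Counted together, 6 of the 8 measured genes were called in HFD against ND, 3 higher and 3 lower. Beside these, 37.3% of the kept probes and 52.9% of the named genes were called in this comparison, the named genes with 25.2% higher and 27.7% lower. In LU against HFD 5 of the 8 were called, 2 higher and 3 lower, beside 28% of the kept probes and 37.9% of the named genes (19.7% higher, 18.2% lower). In LU against ND 4 of the 8 were called, Anpep higher and Vegfb, Angpt1 and Flt1 lower (2 without ND replicate 2), beside 29.9% of the kept probes and 39.7% of the named genes (21.1% higher, 18.6% lower). With 8 genes these shares (75%, 62.5% and 50%) shift widely with 1 gene. The median absolute log2 fold change of the 8 genes was 0.53, 0.39 and 0.22 in the 3 comparisons, beside 0.19, 0.15 and 0.15 over the named genes. The groups did not overlap for 6, 6 and 5 of the 8, beside 60.3%, 59.6% and 54.4% of the named genes and 45.9%, 48.7% and 44.1% of the kept probes.

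**Figure D1:**
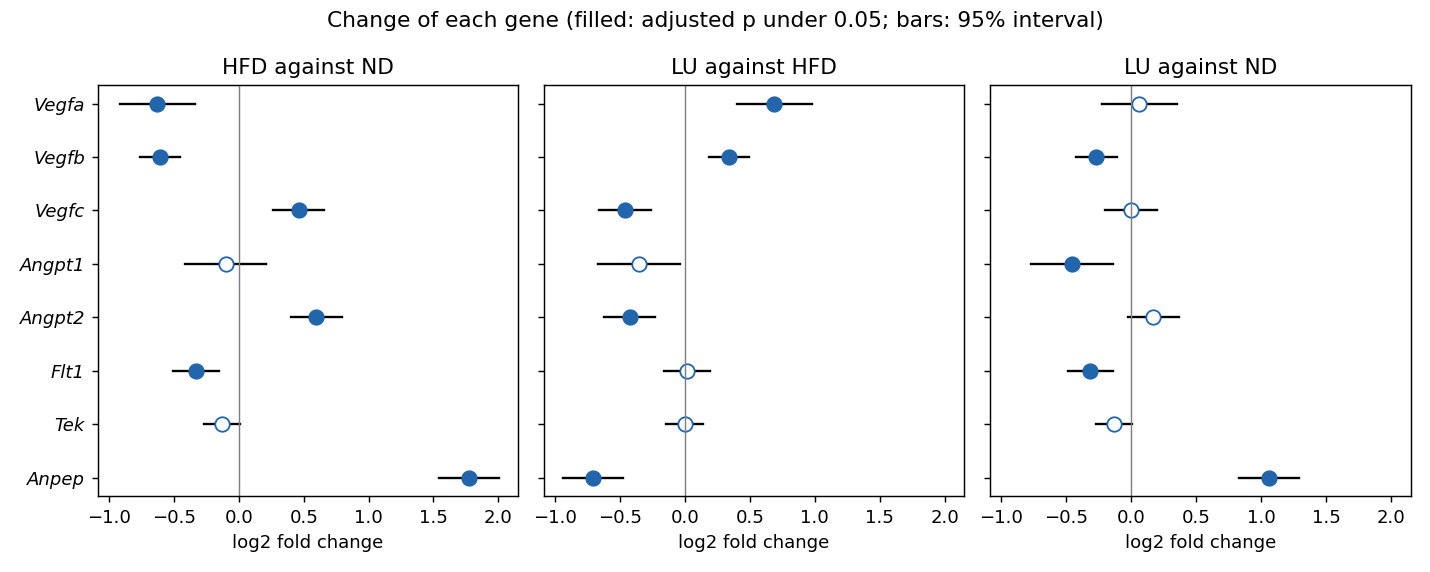
Log2 fold change of the 8 genes (rows) in 3 panels, 1 for each comparison of diets, with 95% intervals from the limma fit as bars and filled points for an adjusted p under 0.05. Vegfa and Vegfb lie below 0 in HFD against ND and above 0 in LU against HFD, Vegfc, Angpt2 and Anpep the other way round, both panels share the HFD arrays, and Anpep at 1.77 in HFD against ND is the largest change.

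The rank product, the test named in the methods for choosing genes, called fewer of these genes than limma. It kept Vegfb and Anpep in HFD against ND, Vegfa and Anpep in LU against HFD and only Anpep in LU against ND. With it, Vegfa in HFD against ND just missed its threshold (false discovery rate 0.053).

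**Figure D2:**
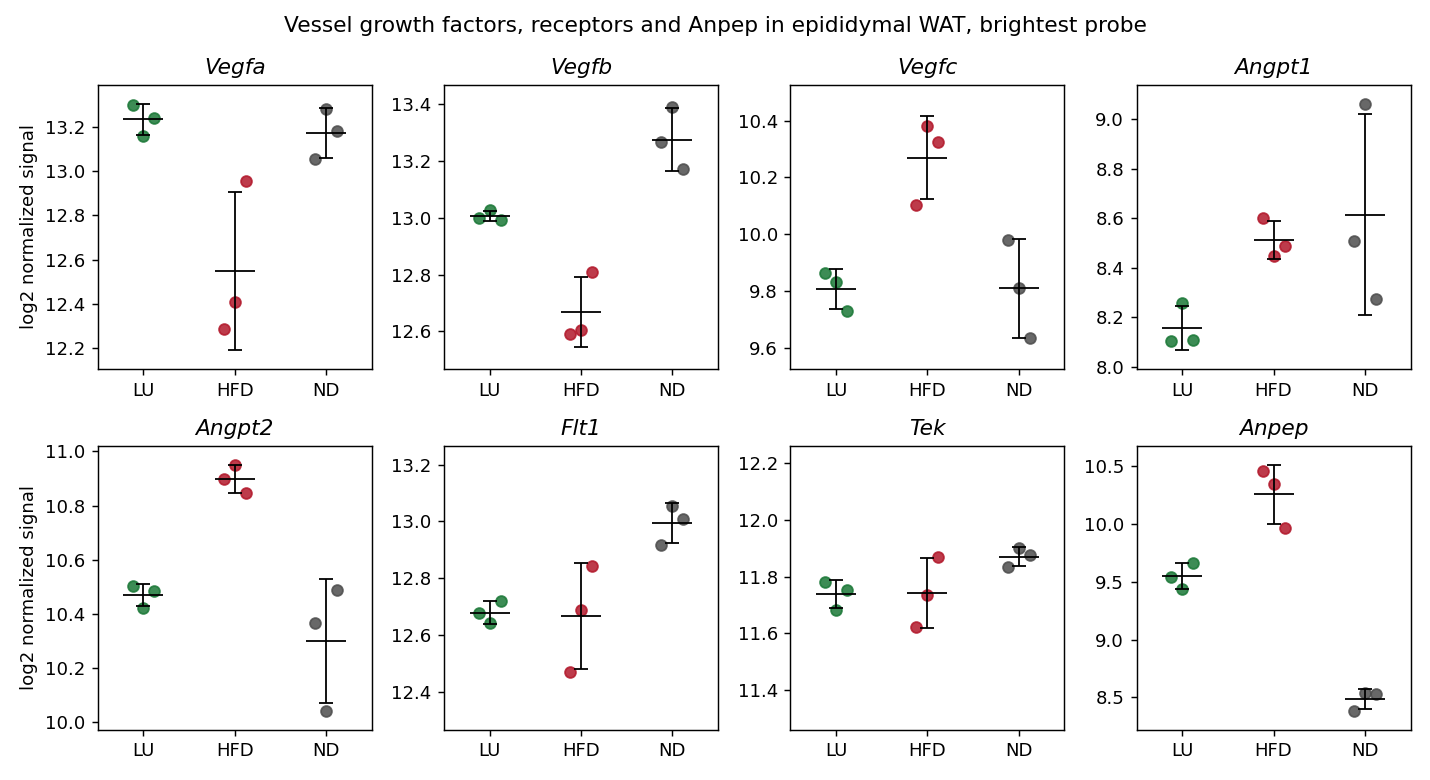
Log2 normalized signal of the 8 measured genes on each array, by diet (LU, HFD, ND, 3 arrays each), with points for arrays, long ticks for means and bars for SD. The scale differs between panels; Vegfa and Vegfb are lowest and Vegfc, Angpt2 and Anpep highest in HFD, where no array overlaps those of LU or ND for these 5 genes.

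The brightest Vegfa probe (ILMN_2484527) read 13.30, 13.16 and 13.24 on the LU arrays, 12.28, 12.41 and 12.95 on the HFD arrays and 13.06, 13.28 and 13.19 on the ND arrays. The HFD arrays were the lowest 3, with HFD replicate 3 close to the others, and LU and ND overlapped. Vegfa was 1.54-fold lower in HFD than in ND (-0.63 ± 0.13, adjusted p = 0.0025). It was 1.61-fold higher in LU than in HFD (0.69 ± 0.13, adjusted p = 0.0025). LU and ND differed by 0.06, with a 95% interval of -0.23 to 0.35 (adjusted p = 0.77). The second Vegfa probe (ILMN_3121255) read 10.84, 10.93 and 11.10 in LU, 10.31, 10.34 and 10.75 in HFD and 11.06, 11.50 and 11.22 in ND. This probe showed the same order for HFD, with -0.79 ± 0.13 against ND (adjusted p = 0.00033) and 0.49 ± 0.13 for LU against HFD (adjusted p = 0.013). In LU against ND, where the brightest probe gave 0.06, it gave -0.31 (adjusted p = 0.087), so the direction of this small difference depended on the probe.

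Vegfb encodes a ligand of VEGFR1 that is abundant in tissues that burn or store fat. Its signal was 13.001, 13.027 and 12.994 in LU, 12.59, 12.60 and 12.81 in HFD and 13.27, 13.39 and 13.17 in ND. The 3 groups did not overlap, with LU between HFD and ND. Vegfb was 1.52-fold lower in HFD than in ND (-0.61 ± 0.07, adjusted p = 3.1e-05). It was 1.26-fold higher in LU than in HFD (0.34 ± 0.07, adjusted p = 0.0042). It was 1.20-fold lower in LU than in ND (-0.27 ± 0.07, adjusted p = 0.014), and without ND replicate 2 this last difference was -0.21 and missed the threshold (adjusted p = 0.052).

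Vegfc, the lymphatic growth factor, ran the other way. It read 9.86, 9.83 and 9.73 in LU, 10.10, 10.38 and 10.32 in HFD and 9.98, 9.81 and 9.63 in ND. Every HFD array lay above every LU and ND array, and LU and ND overlapped. Vegfc was 1.38-fold higher in HFD than in ND (0.46 ± 0.09, adjusted p = 0.0016). It fell by 0.46 ± 0.09 in LU against HFD (adjusted p = 0.0027). The LU and ND means were 9.81 and 9.81, and the interval of their difference was -0.20 to 0.20.

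The markers of lymphatic endothelial cells did not follow Vegfc in HFD. Of 5 measured of 7 listed, 1 was higher and 1 was lower in HFD than in ND, with a median log2 fold change of -0.0013, while all 5 were lower in LU than in HFD, with a median of -0.81. Their summed signal was 7386 to 8227 in LU, 11516 to 15041 in HFD and 10275 to 14373 in ND. Lyve1, a hyaluronan receptor also found on some macrophages, fell by 1.32 in LU against HFD (adjusted p = 1.0e-06), and Mmrn1 fell by 1.16 (adjusted p = 0.00016). The defining transcription factor Prox1 and the VEGF-C receptor Flt4 had no kept named probe. The part of lymphatic cells in the Vegfc values was not tested. In whole tissue, fewer cells of a type and less RNA per cell cannot be told apart.

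The difference between a pair of genes on the same array removes any shift that both share, and only its change between groups has meaning. The log2 signal of Vegfa minus that of Vegfc was 3.43 ± 0.09 in LU, 2.28 ± 0.31 in HFD and 3.37 ± 0.25 in ND (SD, n = 3 each). The HFD arrays, at 2.02 to 2.63, lay below the LU arrays, at 3.33 to 3.51, and the ND arrays, at 3.08 to 3.55. The exact permutation test gave p = 0.1 for HFD against ND and for LU against HFD, the smallest p that 3 arrays against 3 allow. After Benjamini-Hochberg adjustment over the 9 differences of this kind that were computed it was 0.23. Every HFD array was already lowest for Vegfa and highest for Vegfc. This p therefore followed from those values and is no further support. Vegfa minus Vegfb was 0.23 ± 0.08 in LU, -0.12 ± 0.24 in HFD and -0.10 ± 0.11 in ND (SD, n = 3 each). LU, at 0.14 to 0.30, lay above ND, at -0.21 to 0.01 (difference 0.33, exact permutation p = 0.1, again the smallest possible, and 0.23 after adjustment). This rests on the brightest Vegfa probe. In LU against ND the second Vegfa probe gave -0.31, beside -0.27 for Vegfb. For Vegfa minus Vegfb, LU overlapped HFD (exact permutation p = 0.2), and HFD overlapped ND (exact permutation p = 1). The third pair, Angpt2 minus Angpt1, was 2.31 ± 0.13 in LU, 2.38 ± 0.11 in HFD and 1.68 ± 0.63 in ND (SD, n = 3 each). Its exact permutation p was 0.1 for HFD against ND, 0.6 for LU against HFD and 0.2 for LU against ND.

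Angpt2, the angiopoietin that is made in endothelial cells when vessels are remodelled, read 10.50, 10.42 and 10.48 in LU, 10.90, 10.95 and 10.84 in HFD and 10.37, 10.04 and 10.49 in ND. The HFD arrays stood above all others, and LU overlapped ND. Angpt2 was 1.51-fold higher in HFD than in ND (0.60 ± 0.09, adjusted p = 0.00024). It was 1.35-fold lower in LU than in HFD (-0.43 ± 0.09, adjusted p = 0.0044). The difference of LU and ND was 0.17 (adjusted p = 0.18), and without ND replicate 3 it was 0.26 (adjusted p = 0.036).

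Angpt1, the vessel-stabilising angiopoietin made by mural and stromal cells, read 8.11, 8.26 and 8.11 in LU, 8.60, 8.45 and 8.49 in HFD and 8.51, 9.06 and 8.27 in ND. ND replicate 2 was far above the other 2 ND arrays, and the SD was 0.08 in HFD and 0.40 in ND. HFD and ND overlapped, and every LU array lay below every HFD and ND array. The fit gave -0.10 for HFD against ND (adjusted p = 0.63), which turned to 0.12 without ND replicate 2 (adjusted p = 0.27). LU against HFD was -0.36 ± 0.15 and missed the threshold (adjusted p = 0.087), but passed it without ND replicate 2 (adjusted p = 0.0029), without ND replicate 3 (adjusted p = 0.031) and with LU and HFD fitted alone (adjusted p = 0.00091). LU against ND was -0.46 ± 0.15 (adjusted p = 0.031). That last call was lost without ND replicate 2 (-0.23, adjusted p = 0.053), LU replicate 1 (-0.43, adjusted p = 0.10), LU replicate 2 (-0.51, adjusted p = 0.053) or LU replicate 3 (-0.43, adjusted p = 0.097). The Angpt1 signal lies near the background, which was 7.79 to 7.82 on the arrays. With background correction by neqc LU against HFD was -0.71, still not called, and LU against ND was -0.84.

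Of the receptors with a probe, Flt1 was lower in HFD and in LU than in ND, and Tek was not called. The brightest Flt1 probe (ILMN_1227926) read 12.68, 12.64 and 12.72 in LU, 12.47, 12.69 and 12.84 in HFD and 12.92, 13.05 and 13.01 in ND. The ND arrays were the highest 3, and LU lay within the HFD range. Flt1 was 1.25-fold lower in HFD than in ND (-0.33 ± 0.08, adjusted p = 0.0070) and 1.24-fold lower in LU than in ND (-0.31 ± 0.08, adjusted p = 0.012). LU and HFD differed by 0.01, with an interval of -0.16 to 0.19 (adjusted p = 0.93). The second Flt1 probe (ILMN_2732721) lay at background and was detected on 2 LU, 1 HFD and 3 ND arrays, and it was not called in HFD against ND (-0.16, adjusted p = 0.069) or LU against ND (-0.11, adjusted p = 0.21).

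Tek read 11.78, 11.68 and 11.75 in LU, 11.62, 11.73 and 11.87 in HFD and 11.83, 11.90 and 11.88 in ND. The HFD arrays spanned the LU range and reached into that of ND, while LU lay below ND. None of the comparisons passed the threshold, with -0.13 for HFD against ND (95% interval -0.27 to 0.01, adjusted p = 0.14), -0.0031 for LU against HFD (-0.14 to 0.14, adjusted p = 0.98) and -0.13 for LU against ND (-0.27 to 0.0096, adjusted p = 0.15). Without HFD replicate 3, HFD against ND was -0.19 and passed (adjusted p = 0.035).

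A minority of the markers of vascular endothelial cells, which carry Flt1 and Tek, were lower in HFD. Of 13 measured of 16 listed, 3 fell in HFD against ND and 10 were not called, with a median of -0.13. The 3 were Robo4 (-0.45), Cldn5 (-0.40) and Gpihbp1 (-0.50), which hold the endothelial barrier or, for Gpihbp1, carry lipoprotein lipase to the capillary wall. In LU against HFD limma called 0 of 13 (0 also at an unadjusted p under 0.05 and by the rank product), and the median was 0.0049. The defining markers Pecam1 (-0.02) and Cdh5 (-0.09) were not called in HFD against ND. The summed signal of the list was 58865 to 60912 in LU, 53289 to 62004 in HFD and 64646 to 72941 in ND, so HFD lay below ND and LU lay within the HFD range, as for Flt1. Tie1, Erg and Plvap had no kept named probe. The part of endothelial cell number in the Flt1 and Tek values was not tested.

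Anpep, also called CD13 or aminopeptidase N, cleaves residues from the amino end of peptides and is found on myeloid cells, stromal cells and growing vessels. It had the largest change of the 8 genes. Its signal was 9.54, 9.44 and 9.66 in LU, 10.46, 10.34 and 9.97 in HFD and 8.39, 8.54 and 8.53 in ND. The 3 groups did not overlap, with LU between HFD and ND and HFD replicate 3 the nearest to LU. Anpep was 3.42-fold higher in HFD than in ND (1.77 ± 0.11, adjusted p = 1.1e-07), and 0.297% of the kept probes had a larger absolute change. It was 1.63-fold lower in LU than in HFD (-0.71 ± 0.11, adjusted p = 0.00052). LU was still 2.09-fold above ND (1.06 ± 0.11, adjusted p = 2.4e-05). The ND signal (mean 8.48) lay near the background of 7.79 to 7.82, which was not subtracted, so the size of the changes against ND depended on the processing. With background correction by neqc HFD against ND was 2.42 in limma (adjusted p = 5.8e-06). Over all alternatives LU against ND ran from 1.01 to 1.57.

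The summed signal of macrophage markers had the same order of groups as Anpep, though single markers did not all follow it. Of 16 listed, 15 were measured, and Cd68 had no kept named probe. Of the 15, 14 were higher in HFD than in ND, with a median of 1.00. All 15 were lower in LU than in HFD, with a median of -0.64. In LU against ND 9 were higher, 2 were lower (Mrc1, -0.40, and Cd14, -0.53) and 4 were not called. Their summed signal was 46039 to 52675 in LU, 71035 to 79754 in HFD and 32878 to 37275 in ND. Of the markers of stromal fibroblasts, another cell type that carries Anpep, 8 of 10 listed were measured, 4 were higher and 2 lower in HFD against ND, and 6 of 8 were lower in LU than in HFD. Their summed signal was 65553 to 68952 in LU, 76832 to 79906 in HFD and 64697 to 74070 in ND. Neutrophil markers (3 measured of 6 listed) had 2 higher in HFD than in ND. In LU against HFD limma called 0 of them (1 by the rank product). Their summed signal was 2336 to 2542 in LU, 2802 to 4050 in HFD and 1061 to 1695 in ND, also in the order of Anpep. The part of any of these cell types in the Anpep values was not tested.

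Adipocyte markers, like Vegfa and Vegfb, were mostly lower in HFD. Of 10 measured of 12 listed, 8 fell in HFD against ND and only the leptin gene Lep rose, with a median of -0.33. In LU against HFD 6 were higher and the other 4 were not called, with a median of 0.22. The summed signal was 229408 to 233243 in LU, 209466 to 220441 in HFD and 218511 to 229337 in ND, so HFD and ND overlapped in the sum. Bright genes weigh most in such a sum. The rise of Lep (0.68, mean 16.01 in HFD and 15.32 in ND) counts in it against the fall of the 8 others. The part of adipocyte content in the Vegfa and Vegfb values was not tested. Mural cell markers (5 measured of 10 listed) had 1 higher (Pdgfrb, 0.26) and 1 lower (Abcc9, -0.22) in HFD than in ND, with summed signals of 4615 to 4673 in LU, 4455 to 5044 in HFD and 4654 to 5013 in ND. Red cell markers (3 measured of 5 listed), which follow the blood left in a piece of tissue, summed to 25803 to 27448 in LU, 37395 to 62004 in HFD and 67057 to 72957 in ND, and their part in the values of the vessel genes was not tested.

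**Figure D3:**
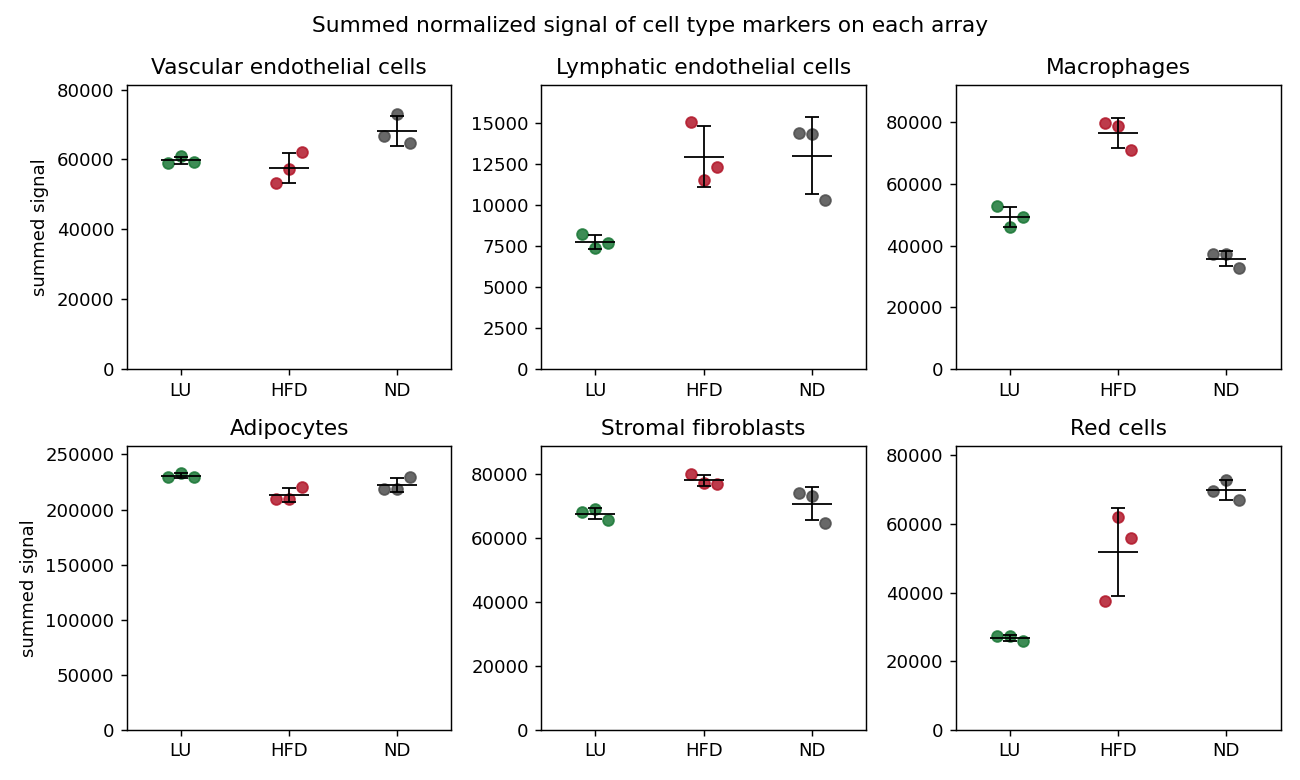
Summed normalized signal of the measured markers of 6 cell types on each array, by diet (LU, HFD, ND, 3 arrays each), with points for arrays, long ticks for means and bars for SD. The macrophage sum is highest in HFD and lowest in ND like Anpep, and the lymphatic sum is lowest in LU. The vascular endothelial sum is highest in ND like Flt1, though 10 of its 13 markers were not called in HFD against ND.

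Named genes whose signal over the 9 arrays was most like that of each vessel gene were looked up among 8691 candidates, as a description in which group differences and shared arrays both enter. For Vegfa they were Nmrk1 (Pearson's r 0.97), Afg3l2 (0.96) and Ginm1 (0.96). For Vegfb they were Sh3d21, Acsm5 and Tspan12, each at 0.99. For Vegfc they were Cltc, Hps3 and the chemokine gene Ccl8, each at 0.97. Angpt2 ran closest to Nans (0.99), Nectin3 (0.99) and Angptl1 (0.98), and Angpt1 to Trmt112 (0.97), Trmo (0.97) and Tbc1d10a (0.96). Flt1 ran closest to Exosc1 (0.98), Cnih1 (0.98) and Jazf1 (0.96). Tek had the lowest top values, with Cldn15 at 0.92, Wdr75 at 0.91 and the endothelial cadherin gene Cdh5 at 0.91. Anpep was closest to Ly9, Sirpa and Wfs1, each at 1.00 after rounding, of which Ly9 and Sirpa encode surface receptors of immune cells.

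Around these genes, 45 others were measured in 7 lists, of which 5 hold vessel growth factors, receptors, Notch genes and inhibitors, 1 holds 11 genes of the hypoxia response and 1 holds 6 cell-surface peptidases like Anpep. In HFD against ND 12 were higher and 10 lower (48.9%, beside 52.9% of the named genes). In LU against HFD 5 were higher and 12 lower (37.8%, beside 37.9%). With median scaling 6 were higher and 7 lower there, and without HFD replicate 1 or LU replicate 3 the number called was 11. In LU against ND 8 were higher and 11 lower (42.2%, beside 39.7%). These shares are near those of all named genes. The median log2 fold changes were -0.01, -0.03 and -0.01, beside -0.03, 0.02 and 0.0087 over the named genes.

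Of the other VEGF family genes, 3 were measured. Vegfd, another lymphatic growth factor, was higher in HFD (11.79 ± 0.08) than in ND (11.17 ± 0.22) by 0.62 (adjusted p = 0.00020), and lower in LU (11.42 ± 0.09) than in HFD by 0.37 (log2 fold change -0.37, adjusted p = 0.011; SD, n = 3 each). Nrp2, a coreceptor for VEGF-C, likewise changed by 0.34 in HFD against ND (adjusted p = 0.00022) and by -0.16 in LU against HFD (adjusted p = 0.036). Vegfd and Nrp2 thus had the signs of Vegfc in both comparisons, and Nrp1, a coreceptor for VEGF-A, was not called (-0.02 and -0.12). Of the angiopoietin-Tie genes 2 of 4 were measured, and Dok2, an adaptor that binds Tie2 and is also made in blood cells, changed by 0.83 in HFD against ND and by -0.48 in LU against HFD (adjusted p = 2.1e-06 and 0.00049).

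Among other vessel growth factors and receptors (12 measured of 15), 4 were higher and 4 lower in HFD than in ND, and 3 were higher and 2 lower in LU than in HFD. Aplnr, the apelin receptor of sprouting endothelium, was higher in HFD than in ND by 0.90 (adjusted p = 7.4e-06) and was not called in LU against HFD (-0.08, adjusted p = 0.56). Fgf1, a growth factor made by adipocytes, changed by 0.60 and -0.42 in these comparisons (adjusted p = 0.00013 and 0.0034). Egfl7, a factor secreted by endothelial cells, was lower in HFD than in ND by 0.24 (-0.24, adjusted p = 0.0042) and higher in LU than in HFD by 0.57 (adjusted p = 4.5e-05). Notch genes of sprouting (5 measured of 6) had 2 lower in HFD than in ND, Notch1 (-0.22) and Notch4 (-0.24), and 2 higher in LU than in HFD, Notch1 (0.21) and Jag1 (0.22).

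Hypoxia drives Vegfa transcription through HIF factors, and of 11 measured of 16 genes of the hypoxia response, 3 were higher and 3 lower in HFD than in ND. Car9, a carbonic anhydrase and HIF target, changed by 0.77 in HFD against ND (adjusted p = 3.4e-07), opposite in sign to Vegfa. In LU against HFD it changed by -0.38 (adjusted p = 0.00033), again opposite in sign to Vegfa. The Car9 signal lay near the background of 7.79 to 7.82, with means of 7.64 in ND, 8.40 in HFD and 8.02 in LU. Egln3, a HIF prolyl hydroxylase that is itself a HIF target, was lower in HFD than in ND (-0.59, adjusted p = 0.00017), as was Arnt, the partner subunit of HIF (-0.48, adjusted p = 0.00014). Neither was called in LU against HFD (0.16 and 0.19). There 3 of the 11 were lower, Car9, Slc2a1 (-0.24, adjusted p = 0.0048) and the HIF subunit gene Hif1a (-0.40, adjusted p = 0.0022). Hif1a was not called in HFD against ND (0.15, adjusted p = 0.14). The list held genes on both sides of 0, and the part of hypoxia in the Vegfa values was not tested.

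Of 6 measured of 9 inhibitors of vessel growth, Serpinf1, which encodes the secreted inhibitor PEDF, was higher in HFD than in ND by 0.57 (adjusted p = 3.0e-05). Col18a1, the source of endostatin, was higher by 0.46 (adjusted p = 0.0089), and Timp3, which blocks VEGF-A from binding its receptor, was lower (-0.46, adjusted p = 0.0025). None of these 3 was called in LU against HFD (-0.13, 0.04 and 0.08), where 2 others of the list were lower. Other cell-surface peptidases (6 measured of 8) were followed beside Anpep. In HFD against ND limma called 0 of them (1 at an unadjusted p under 0.05, 0 by the rank product), and their changes ran from -0.11 to 0.17, beside 1.77 for Anpep. In LU against HFD 2 were lower, Ace (-0.27) and Dpp4 (-0.24).

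**Figure D4:**
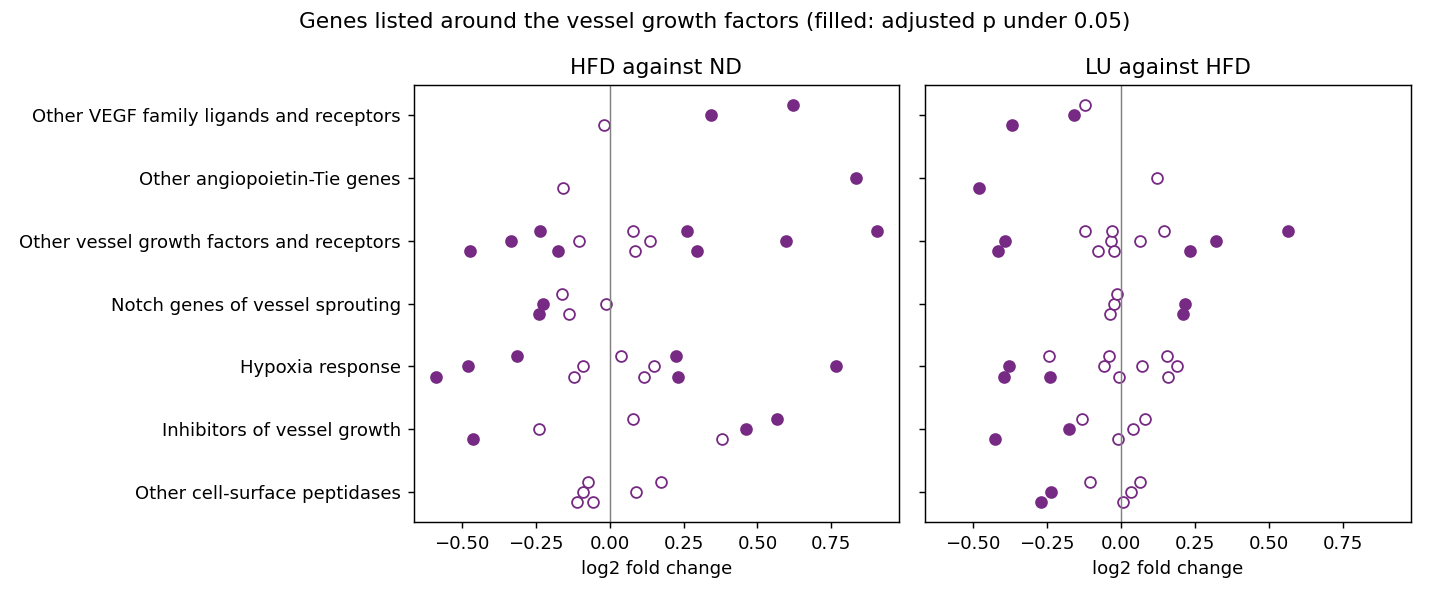
Log2 fold change of 45 genes listed around the vessel growth factors, in 7 lists (rows), in HFD against ND and LU against HFD, with 1 point per gene, filled for an adjusted p under 0.05. Vertical offsets within a row only separate points. The lists hold genes on both sides of 0 in most rows. In the VEGF family and angiopoietin-Tie rows, Vegfd, Nrp2 and Dok2 lie above 0 in HFD against ND and below 0 in LU against HFD. The other genes of these rows were not called in either comparison.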

How the data were processed

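RNA of epididymal WAT was measured on 9 arrays, 3 each for LU, HFD and ND. The files deposited hold the unnormalized signal intensity of 45281 probes with a detection p-value for each value, and a log2 table of 17128 probes that the authors had quantile-normalized. That table also equals the series values. It holds 35.1% of the kept probes that differ by under 0.1 between all group means and 98.6% of those that differ by over 0.5, and probes are named only within it, so named genes change more often than all kept probes. The signals of all probes were therefore quantile-normalized and log2-transformed here, the steps that the methods name, and no background was subtracted. Probes were kept at a detection p under 0.05 on at least 3 of 9 arrays. Between 42.2% and 43.8% of probes passed detection on an array, and the raw median signal was 193.5 to 197.3 in LU, 209.4 to 215.8 in HFD and 193.7 to 206.9 in ND. The number of arrays limits the precision.

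Tests used limma 3.58.1 (R 4.3.3) with a single model for the 9 arrays, two-sided, with Benjamini-Hochberg adjustment over the kept probes of a comparison. The 9 genes, the lists around them and the tests were chosen with earlier results of these data known. All 9 genes are named, with up to 3 genes a list with the largest called change in HFD against ND or LU against HFD, and the 3 named genes most like each by Pearson's r. Cell type markers named beside them, and Nrp1, Hif1a and Slc2a1, were picked from their lists after the values were seen. The code was tested on simulated data. Alternatives were neqc, median scaling, the authors' table, the compared groups alone, a replicate block, a trend in the spread, other filters, the mean of probes, the rank product (50 permutations), the methods' t-test, a fold change of at least 1.5, leaving out each array and, added after the values were seen, the other probe of a gene. Replicate numbers do not pair the arrays (correlation of deviations -0.10 to 0.09). No slide is named in the files, so slide was not modelled, and slide and diet cannot be told apart. The labels give 10 mice a group, and the methods give other numbers and describe the fat content differently. The genome build of the probe design is not given in the sources used here.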

Additional observations from a re-analysis of the deposited data

How the results depend on the processing

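Of the changes of single genes under all alternatives, 442 kept their direction and side of the threshold, 26 lost a call, 6 gained one and 12 changed sign. The number of genes called was 2, 2 and 1 with the rank product, in HFD against ND, then LU against HFD, then LU against ND. The methods' t-test after Benjamini-Hochberg gave 2, 4 and 2 (6, 6 and 4 unadjusted, with Vegfb and Anpep, then Vegfb, Vegfc, Angpt1 and Angpt2, then Flt1 and Anpep kept), and a fold change of at least 1.5 left 4, 2 and 1. With the replicate block the counts were 6, 5 and 4, and the block changed no call. Leaving out each array gave 6 to 7, 5 to 6 and 2 to 5, with 2 in LU against ND without ND replicate 2. For the 45 genes listed around them it gave 19 to 22, 11 to 18 and 16 to 22, with 11 in LU against HFD without HFD replicate 1 or LU replicate 3.

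Signs turned for Angpt1 in HFD against ND (-0.27 to 0.12 over the arrays left out, positive without ND replicate 2) and for Flt1 in LU against HFD (-0.086 to 0.10, negative without HFD replicate 1 or LU replicate 3). They turned for Tek in LU against HFD (0.046 with median scaling, -0.063 to 0.060 over the arrays left out, positive without HFD replicate 3 or LU replicate 2). In LU against ND they turned for Vegfc (0.023 with median scaling, -0.088 to 0.084 over the arrays left out, positive without ND replicate 1, ND replicate 2 or LU replicate 3) and for Vegfa (-0.12 with the mean of its probes, -0.31 with the other probe). The cause was not tested. Median scaling moved the share of called probes that were higher in LU than in HFD to 65.0% (3474 higher, 1869 lower), beside 52.1% with quantile normalization (2996 higher, 2751 lower). Anpep kept its call in all alternatives of HFD against ND and LU against ND, and in those of LU against HFD except the t-test (adjusted p = 0.053). Array signal near background limits Angpt1, the second Flt1 probe and the size of the Anpep changes against ND. The same holds for Car9, Notch4, Nrp2, Egln3 and Jag1 among the genes listed around them.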
